A study of Mus musculus with 40 samples.

Results

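The 8 genes described here encode nucleic acid sensors and TRIM regulators: Zbp1, Ddx58, Ifih1, Dhx58, Ddx60, Trim30a, Trim30d and Trim25. They were chosen by symbol, and all 8 were found among the 45792 mouse gene IDs of the deposited count table. Earlier results of these data were known when they were chosen. The shares over all genes given below are therefore a description and not an independent test. RNA had been collected from epithelial cells of the colon and from whole colonic tissue of mice given 2000000 sorted cells of the gut protozoan Tritrichomonas musculis (T.mu) and of mice with no inoculum. The groups were T.mu epithelium and control epithelium, and T.mu total tissue and control total tissue, each at 3, 14 and 48 days. Each of the 12 groups held 3 libraries at days 3 and 14 and 4 at day 48, which gave 40 libraries, each labelled with a litter number, whereas the study design names 3 mice per group. Whether the 4 libraries of a day 48 group came from 4 mice is therefore uncertain. Strain, sex and age are not given in the sources used here, nor is any genetic change.

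Cells detect foreign or misplaced nucleic acid with sensors that sit in the cytosol. RIG-I (Ddx58), MDA5 (Ifih1) and LGP2 (Dhx58) are related helicases that bind double-stranded RNA, and the first pair signals through the adaptor MAVS to interferon genes. ZBP1 binds Z-form nucleic acid and can recruit the kinase RIPK3 to start cell death. TRIM proteins are mostly ubiquitin ligases, some of which tune these routes, and many genes of both kinds are themselves switched on by interferon.

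Of the 8 genes, 6 had promoter sequences in RefSeq (GRCm38.p6), taken from 250 bases before to 50 bases after the transcript start, and these 6 genes have 7 such promoters. The core of the interferon-stimulated response element (ISRE), the DNA motif through which interferon acts on many of its target genes, was searched as GAAA, any 2 bases and GAAA on both strands. It was found in 6 of the 7 promoters, which belong to 5 of the 6 genes. Over RefSeq it was found in 3.44% of all 32851 promoters of the same length and in 3.99% of their 27025 genes. The motif was searched by its letters alone, and a match describes the sequence and does not show that a factor is bound. The 4 promoters printed here show the gene with 2 matches (Ddx60), the neighbouring paralogs (Trim30a and Trim30d) and the gene with no match (Trim25), each 5′ to 3′ on the strand of its gene, with ISRE cores in capitals. They are chr8:61927837-61928136 (plus strand), chr7:104465144-104465443 (minus), chr7:104507800-104508099 (minus) and chr11:88999153-88999452 (plus), in that order.
Ddx60: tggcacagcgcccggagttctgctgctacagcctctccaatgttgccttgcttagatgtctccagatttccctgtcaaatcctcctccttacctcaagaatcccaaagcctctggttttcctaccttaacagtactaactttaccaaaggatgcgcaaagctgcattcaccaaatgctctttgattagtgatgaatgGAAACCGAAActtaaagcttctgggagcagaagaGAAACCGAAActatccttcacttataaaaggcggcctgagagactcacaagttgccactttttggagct
Trim30a: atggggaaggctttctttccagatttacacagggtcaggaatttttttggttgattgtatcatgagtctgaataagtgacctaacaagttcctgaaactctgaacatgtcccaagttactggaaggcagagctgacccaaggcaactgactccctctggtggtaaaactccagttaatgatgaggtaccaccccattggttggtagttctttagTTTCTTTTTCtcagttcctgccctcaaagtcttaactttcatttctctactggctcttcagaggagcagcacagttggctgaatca
Trim30d: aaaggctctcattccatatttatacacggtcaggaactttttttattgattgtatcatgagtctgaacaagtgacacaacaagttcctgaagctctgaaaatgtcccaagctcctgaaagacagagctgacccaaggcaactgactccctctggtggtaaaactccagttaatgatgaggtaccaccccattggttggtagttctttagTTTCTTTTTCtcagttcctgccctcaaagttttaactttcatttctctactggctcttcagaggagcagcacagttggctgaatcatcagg
Trim25: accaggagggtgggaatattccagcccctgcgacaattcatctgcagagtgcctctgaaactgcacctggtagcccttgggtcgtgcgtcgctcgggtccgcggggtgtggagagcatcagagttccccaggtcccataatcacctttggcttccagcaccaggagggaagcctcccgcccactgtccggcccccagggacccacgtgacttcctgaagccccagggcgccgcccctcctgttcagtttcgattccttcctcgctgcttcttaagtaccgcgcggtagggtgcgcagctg

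The 2 cores of Ddx60 began 53 and 19 bases before the transcript start and lay on the strand of the gene. The cores of Trim30a and Trim30d lay on the other strand, with their first bases 36 and 41 bases before the start. The core lies within a run of 118 identical bases shared by these paralogs' promoters, printed above. Ifih1 had 1 core that began 32 bases after its start, and Ddx58 had 1 that began 2 bases after its start, on the opposite strand. The other listed start of Trim30a, at chr7:104446076-104446375 on the minus strand, also had 1 core, with the same letters. The matches of Trim30a and Trim30d are therefore not separate finds.

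Total mouse counts ranged from 170291 to 2866306 per epithelial library and from 220717 to 6756616 per tissue library, and 3 epithelial and 4 tissue libraries were below 400000. In tissue at day 48 every T.mu library (236155 to 1355659 counts) was shallower than every control library (2223447 to 6756616 counts). The second barcode in the labels' sample names also differed between these 2 groups. Depth and barcode therefore cannot be told apart from inoculum there. That barcode also differed between days, and at day 14 between epithelium and tissue. Levels are given as CPM, counts scaled to a library's total over the genes kept by the filter on low counts, after TMM scaling within each preparation. Sums over marker genes are plain CPM of the mouse total with no TMM scaling. The CPM that a count of 0 allows and the ratios of counts also use the mouse total, so they are on a slightly different scale. All 10 epithelial marker genes, such as Epcam and Cdh1, were detected in both preparations. The summed level of 8 stromal and muscle markers lay between 8.22 and 48.3 CPM in T.mu epithelium and between 12.2 and 52.9 CPM in control epithelium, against 1961 to 3970 CPM in T.mu tissue and 1795 to 4242 CPM in control tissue. The quasi-likelihood test of edgeR was used, with Benjamini-Hochberg adjustment over all genes tested and a threshold of 0.05, and each ± after a log2 fold change is its standard error.

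All 8 genes were called higher in T.mu tissue than in control tissue when the 3 days were averaged. The calls of Ddx58, Ddx60 and Trim25 ended in some of the alternatives given below. As a background, 1.5% of the 11696 genes tested were called higher. The median log2 fold change of the 8 was 1.95, against -0.03 over all genes. Trim30a, Zbp1, Dhx58, Ddx60 and Trim30d averaged between 3.83-fold and 12.1-fold higher in T.mu tissue, Ifih1 1.95-fold, Ddx58 1.66-fold and Trim25 1.38-fold. The highest of these, of Trim30a, takes in day 14, where the control libraries held 2 counts of it in all, so its fitted size depends on the prior count. Without control replicate 3 of day 14, the library that held those counts, its average was 4.93 on the log2 scale, against 3.60 with it. At day 3, 4 of the 8 were called higher (0.462% of all genes), at day 14 5 (0.821%), and at day 48 6 (1% of all genes). The summed level of 15 leukocyte markers at day 3 was 172 to 224 CPM in T.mu tissue and 87.5 to 133 CPM in control tissue, and its part in the day 3 values was not tested. In every one of these comparisons the fold change of all 8 genes was above 0. Every T.mu tissue library was above every control tissue library for 8 of the 8 genes at day 3 (6.84% of all genes), 8 at day 14 (8.77%) and 6 at day 48 (2.71%). For day 48, and for its part in the average over days, inoculum cannot be told apart from the depth and barcode of the libraries.

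Zbp1 (chr2:173206612-173218923, minus strand, GRCm38) showed the same separation at each time in tissue. At day 3 it stood at 55.9, 108 and 69.0 CPM in T.mu tissue, against 16.97, 15.6 and 20.3 CPM in control tissue. At day 14 it stood at 104, 119 and 84.8 CPM in T.mu tissue, against 11.6, 0 and 19.7 CPM in control tissue. At day 48 it stood at 52.2, 72.2, 78.2 and 80.7 CPM in T.mu tissue, against 22.3, 12.3, 10.1 and 20.6 CPM in control tissue. The lowest T.mu library at each time was above the highest control, and the control library with 0 counts was shallow enough that its count of 0 allows up to 13.6 CPM. The log2 fold changes were 2.15 ± 0.30 at day 3 (adjusted p = 4.33e-06), 2.80 ± 0.38 at day 14 (adjusted p = 2.72e-06) and 2.17 ± 0.29 at day 48 (adjusted p = 5.93e-06). Without control replicate 3 the day 14 value was 3.95. Floors of this kind and count intervals cover counting error only, and they take each count as a separate read. Small values were mostly even (61.2% to 87.2% per library), as when both mates of a pair are counted. In that case the floors are too low and the intervals too narrow. In bulk RNA, more cells of a type and more RNA per cell cannot be told apart.

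Of the RIG-I-like helicases, Dhx58 and Ifih1 rose in T.mu tissue at single days and Ddx58 only passed the test in the average over days. Dhx58, which lacks the signalling domain of its relatives and modulates them (chr11:100694884-100704271, minus strand), stood at 18.8, 42.4 and 34.1 CPM in T.mu tissue at day 3, against 6.53, 4.30 and 7.63 CPM in control tissue. By day 14 the values were 36.6, 52.8 and 31.2 CPM in T.mu tissue, against 5.79, 8.39 and 6.58 CPM in control tissue. By day 48 the values were 35.9, 14.8, 43.1 and 12.7 CPM in T.mu tissue, against 9.82, 7.61, 4.97 and 6.24 CPM in control tissue. The groups did not overlap at any time, although the 4 T.mu libraries at day 48 spread widely. Its log2 fold changes were 2.36 ± 0.39, 2.62 ± 0.52 and 2.05 ± 0.38 at days 3, 14 and 48 (adjusted p = 0.000103, 0.00200 and 0.000597). The day 48 call ended without T.mu replicate 3 (adjusted p = 0.0695). An antisense gene, Dhx58os, overlaps Dhx58, and since the strand of counting is not given, their reads cannot be told apart.

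Ifih1, which encodes the long-RNA sensor MDA5 (chr2:62595798-62646255, minus strand), moved less but evenly. It stood at 158, 204 and 134 CPM in T.mu tissue at day 3, against 98.5, 92.7 and 114 CPM in control tissue. On day 14 the libraries held 203, 194 and 201 CPM in T.mu tissue, against 86.9, 83.9 and 92.1 CPM in control tissue, and at day 48 at 131, 136, 209 and 195 CPM in T.mu tissue, against 91.5, 91.9, 68.2 and 83.0 CPM in control tissue. No control library reached the level of any T.mu library of its day. The log2 fold change was 0.71 ± 0.20 at day 3, which did not pass the threshold (adjusted p = 0.134), 1.17 ± 0.22 at day 14 (adjusted p = 0.00118) and 1.02 ± 0.18 at day 48 (adjusted p = 0.000399). The day 3 value passed with RLE scaling (adjusted p = 0.0449), with all counts halved (0.0158) and with DESeq2 (0.00702), and the day 14 call ended without the libraries under 400000 counts (adjusted p = 0.125), which left 1 control library at that time.

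Ddx58, which encodes the short-RNA sensor RIG-I (chr4:40203773-40239828, minus strand), ranged from 44.4 to 61.9 CPM in T.mu tissue at day 3, against 20.9 to 30.5 CPM in control tissue. It ranged from 40.2 to 44.1 CPM in T.mu tissue at day 14, against 16.8 to 33.4 CPM in control tissue, and from 8.49 to 55.9 CPM in T.mu tissue at day 48, against 22.0 to 25.9 CPM in control tissue. The groups overlapped at day 48, where the lowest T.mu library held 2 counts of the gene. No single day passed the test (adjusted p = 0.213, 0.631 and 0.313), although day 3 did with counts halved (0.0183), and the average over days was 0.73 ± 0.18 on the log2 scale (adjusted p = 0.0115, higher in 9 of 10 litter pairs). That call ended without T.mu replicate 2 of day 3 (adjusted p = 0.0621) or T.mu replicate 3 of day 48 (adjusted p = 0.121).

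Ddx60, a helicase reported to act together with the RIG-I-like receptors (chr8:61928087-62038244, plus strand), stood at 245, 378 and 192 CPM in T.mu tissue at day 3, against 94.6, 59.1 and 75.4 CPM in control tissue. At day 14 the levels were 219, 228 and 185 CPM in T.mu tissue, against 66.6, 54.5 and 65.8 CPM in control tissue. On day 48 the libraries held 255, 65.6, 422 and 344 CPM in T.mu tissue, against 69.6, 51.5, 53.7 and 43.9 CPM in control tissue. A single T.mu library, replicate 2 of day 48, lay within the control range, and the other T.mu libraries were all above the controls of their day. The same library stood at 72.2 CPM for Zbp1, inside the range of the other T.mu libraries of its group. With it, Ddx60 was called at day 48 (2.32 ± 0.40, adjusted p = 0.00657) and in the average over days (1.97 ± 0.26, adjusted p = 0.000279), but not at day 3 (1.84 ± 0.44, adjusted p = 0.134) or day 14 (1.74 ± 0.50, adjusted p = 0.175). Without it, in a fit chosen after its value was seen, all 3 days were called, with adjusted p = 5.77e-08 at day 3, 4.16e-06 at day 14 and 5.98e-14 at day 48, while the log2 fold changes were 1.84, 1.74 and 2.66. The fit draws its estimate of spread from all 6 tissue groups. Leaving out a library for its value narrows that spread, so these p-values give no separate support. The gap test given further on did not flag this library for Ddx60. With that library kept, days 3 and 14 also passed with no filter (adjusted p = 4.27e-05 and 0.000384) and with DESeq2 (0.00451 and 0.0248), and day 3 with counts halved (0.0408). Without the 4 tissue libraries under 400000 counts, the day 48 value (2.17, adjusted p = 0.121) and the average (1.89, adjusted p = 0.0551) missed the threshold.

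**Figure D1:**
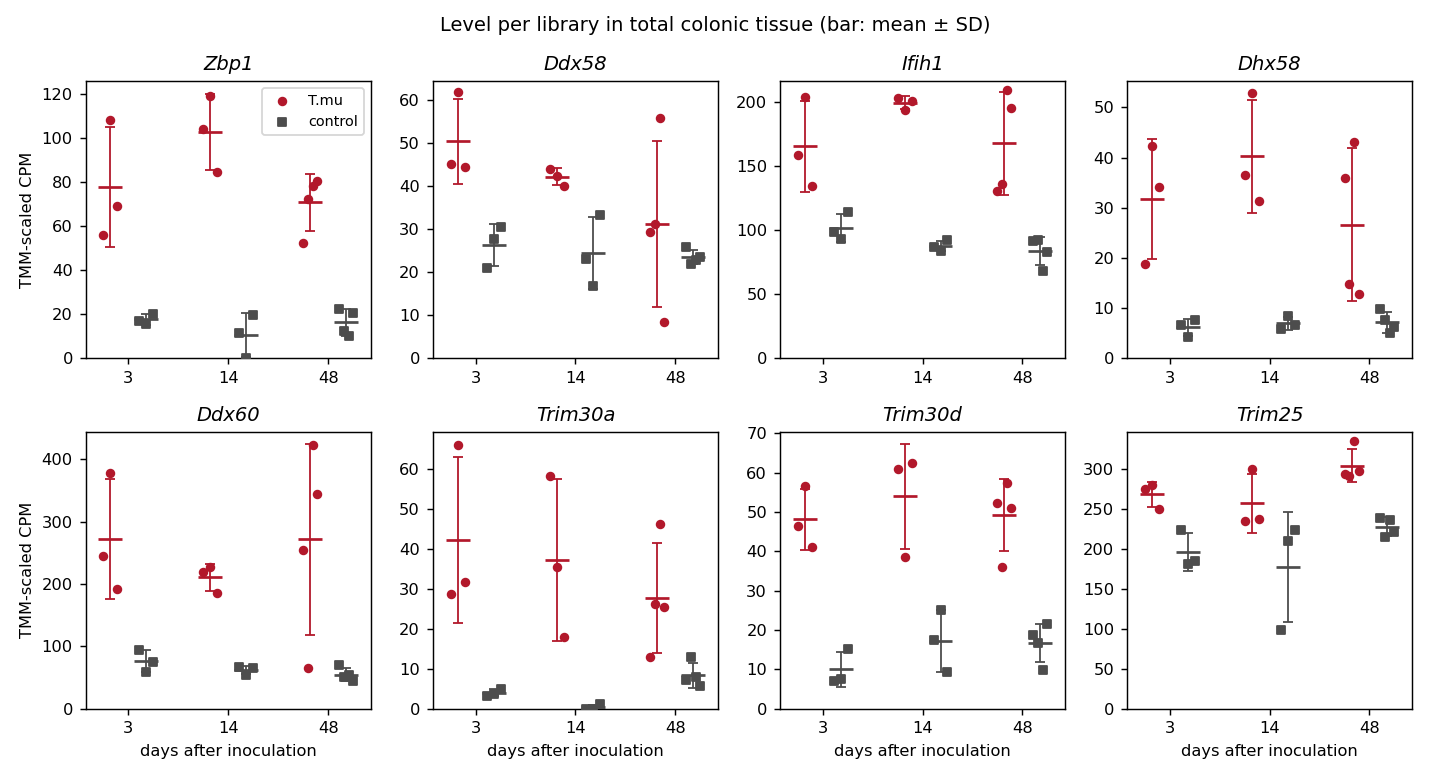
Level of each gene in total colonic tissue, in TMM-scaled CPM, by days after inoculation; each point is 1 library, T.mu in red circles left of control in grey squares, with the mean and SD as bars. T.mu libraries lay above controls throughout, apart from 1 T.mu library of Ddx60 at 65.6 CPM and 1 of Ddx58 at 8.49 CPM, both at day 48.

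Among the TRIM genes, the paralogs Trim30a and Trim30d were called higher in T.mu tissue at every time. Trim25 was above control at every time too, but passed the edgeR test only in the average over days. Trim30a, reported in mouse to restrain Toll-like receptor signalling (chr7:104409025-104465193, minus strand), stood at 28.6, 66.0 and 31.7 CPM in T.mu tissue at day 3, against 3.26, 3.76 and 5.01 CPM in control tissue. At day 14 it stood at 58.2, 35.6 and 17.9 CPM in T.mu tissue, against 0, 0 and 1.10 CPM in control tissue. At day 48 the levels were 13.1, 26.3, 46.3 and 25.5 CPM in T.mu tissue, against 7.14, 12.9, 7.95 and 5.70 CPM in control tissue. The groups separated fully at days 3 and 14 and by a narrow margin at day 48. The log2 fold change was 3.39 ± 0.42 at day 3 (adjusted p = 3.80e-07) and 1.87 ± 0.38 at day 48 (adjusted p = 0.00238), and the day 48 call ended without T.mu replicate 3 (adjusted p = 0.113). At day 14, where the test was also passed (adjusted p = 3.79e-06), the libraries held 308 counts of Trim30a in T.mu tissue against 2 in control tissue, a ratio of 58.1 per count sequenced with a 95% interval of 16.0 to 482. The 2 control libraries at 0 allow up to 8.54 and 13.6 CPM.

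Trim30d, its neighbour on the same strand (chr7:104470014-104507849), stood at 46.5, 56.7 and 41.2 CPM in T.mu tissue at day 3, against 7.18, 7.53 and 15.3 CPM in control tissue. By day 14 the values were 60.9, 38.7 and 62.5 CPM in T.mu tissue, against 17.4, 25.2 and 9.32 CPM in control tissue, and at day 48 at 52.2, 36.1, 57.5 and 51.0 CPM in T.mu tissue, against 18.7, 16.7, 9.94 and 21.4 CPM in control tissue. No T.mu library fell into the control range of its day. The log2 fold changes were 2.26 ± 0.33, 1.97 ± 0.42 and 1.59 ± 0.31 at days 3, 14 and 48 (adjusted p = 8.04e-06, 0.00455 and 0.000984), and the day 14 call ended without control replicate 3 (1.37, adjusted p = 0.174). The paralogs share 6.53% of the 50-base words of Trim30a's transcript, and none of the words in its last 500 bases, where these libraries take their reads, occurs in Trim30d. Of the words in the last 500 bases of the 3 Trim30d transcripts, pooled, 16.7% occur in Trim30a. The split of reads between the paralogs is therefore uncertain, as is the share of Trim30a in the pair given further on. A pseudogene, Gm16464, also overlaps Trim30d.

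Trim25, the ubiquitin ligase that modifies RIG-I (chr11:88999376-89020293, plus strand), ranged from 249.8 to 279 CPM in T.mu tissue at day 3, against 181 to 223 CPM in control tissue. It ranged from 234 to 299 CPM in T.mu tissue at day 14, against 98.5 to 224 CPM in control tissue, and from 290.5 to 335 CPM in T.mu tissue at day 48, against 215 to 239 CPM in control tissue. The groups did not overlap at any day, but no day passed the test (adjusted p = 0.798, 0.334 and 0.224), apart from day 48 with DESeq2 (0.0213). The average over days was 0.46 ± 0.11 on the log2 scale (adjusted p = 0.00630, higher in 10 of 10 litter pairs). That call ended with no filter on low counts (adjusted p = 0.085), without the libraries under 400000 counts (0.139) or without control replicate 1 of day 14 (0.0508).

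**Figure D2:**
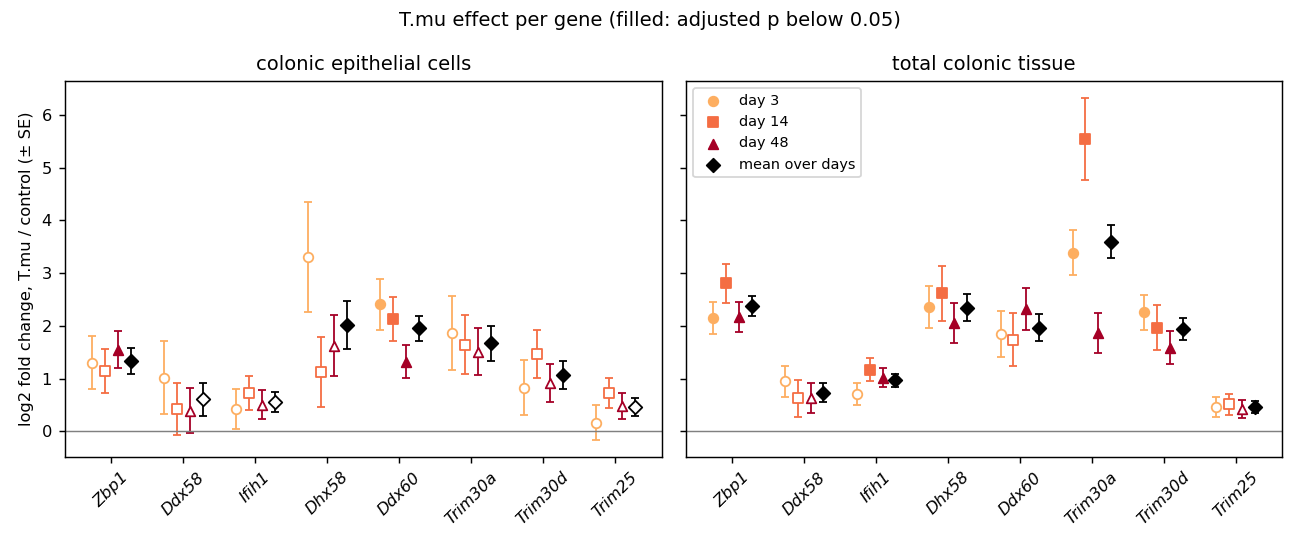
Log2 fold change of T.mu over control with its standard error, for each gene at day 3, day 14, day 48 and averaged over days, in epithelial cells (left) and total tissue (right); filled symbols passed an adjusted p of 0.05. All values lay above 0; those of Trim30a in tissue at day 14 and Dhx58 in epithelium at day 3 rest on 2 control counts each.

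In epithelial cells the same 8 genes had fold changes above 0 at each time, and Ddx60 was the one called at all 3 days. At day 3, 1 of the 8 was called higher (0.326% of all genes) and at day 14 1 (0.336%), Ddx60 both times. At day 48, 2 were called (0.277%), Zbp1 and Ddx60. In the average over days 5 of 8 were called higher (2.46% of the 10119 genes tested), and the median log2 fold change was 1.20, against 0.02 over all genes. Every T.mu library was above every control for 5 of the 8 genes at day 3 (7.6% of all genes), 7 at day 14 (9.76%) and 3 at day 48 (2.09%).

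Ddx60 stood at 92.3, 97.1 and 42.2 CPM in T.mu epithelium at day 3, against 9.39, 14.0 and 21.3 CPM in control epithelium. On day 14 the libraries held 48.8, 34.6 and 53.0 CPM in T.mu epithelium, against 10.9, 11.4 and 8.69 CPM in control epithelium. At day 48 it stood at 31.3, 77.6, 39.0 and 95.3 CPM in T.mu epithelium, against 28.04, 20.4, 18.03 and 28.4 CPM in control epithelium. The groups did not overlap, with the closest approach at day 48. The log2 fold changes were 2.40 ± 0.49 at day 3 (adjusted p = 0.00540), 2.13 ± 0.42 at day 14 (adjusted p = 0.00253) and 1.32 ± 0.32 at day 48 (adjusted p = 0.0371), and 1.95 ± 0.24 in the average (adjusted p = 2.19e-08). The day 48 call ended with litter as a block (1.25, adjusted p = 0.0512), with no filter (0.0642), with DESeq2 (0.0569) and without any 1 of 6 of its 8 libraries. The day 3 call ended without control replicate 1 (adjusted p = 0.0718) and without the libraries under 400000 counts (0.300), which left 1 control library.

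Zbp1 stood at 38.1, 47.1 and 43.05 CPM in T.mu epithelium at day 3, against 18.8, 14.0 and 21.3 CPM in control epithelium. At day 14 the levels were 34.2, 32.3 and 44.9 CPM in T.mu epithelium, against 19.3, 22.8 and 8.69 CPM in control epithelium, and at day 48 at 30.9, 33.7, 39.5 and 57.5 CPM in T.mu epithelium, against 13.4, 8.86, 7.21 and 26.5 CPM in control epithelium. Every T.mu library was above every control of its day. The log2 fold change was 1.55 ± 0.35 at day 48 (adjusted p = 0.0223), where leaving out any 1 of 5 of the 8 libraries raised the adjusted p to between 0.0551 and 0.309. In the average over days it was 1.33 ± 0.25 (adjusted p = 0.000361).

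Dhx58 was low in epithelium. It stood at 16.2, 11.8 and 25.2 CPM in T.mu epithelium at day 3, against 0, 3.51 and 0 CPM in control epithelium, which is 49 counts against 2, a ratio of 11.9 with a 95% interval of 3.14 to 101. The 2 control libraries at 0 allow up to 9.17 and 17.6 CPM. At days 14 and 48 the groups overlapped, and the lowest T.mu library, at 4.61 and 5.61 CPM, was below the highest control, at 12.1 and 9.01 CPM. The average over days was 2.02 ± 0.46 on the log2 scale (adjusted p = 0.00586), and without the libraries under 400000 counts it was 1.79 (adjusted p = 0.0515). Without control replicate 2 of day 3, the 1 control of that day with counts of the gene, it was 3.41.

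Trim30a stood at 23.1, 35.3 and 27.6 CPM in T.mu epithelium at day 3, against 18.8, 3.51 and 0 CPM in control epithelium. At day 14 it stood at 17.7, 21.5 and 27.9 CPM in T.mu epithelium, against 2.42, 5.71 and 12.2 CPM in control epithelium, and at day 48 at 18.4, 46.7, 14.96 and 31.8 CPM in T.mu epithelium, against 6.68, 5.31, 10.2 and 16.1 CPM in control epithelium. The groups overlapped at day 48 by 1 library on each side. The average over days was 1.67 ± 0.33 on the log2 scale for Trim30a (adjusted p = 0.00104, higher in 10 of 10 litter pairs) and 1.07 ± 0.26 for Trim30d (adjusted p = 0.0107, higher in 9 of 10). Trim30d ranged from 19.97 to 74.8 CPM over the 10 T.mu libraries of epithelium and from 7.25 to 36.0 CPM over the 10 controls.

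The remaining 3 genes did not pass the test in epithelium in the average over days. The log2 fold change was 0.55 ± 0.19 for Ifih1 (adjusted p = 0.0883), 0.46 ± 0.16 for Trim25 (adjusted p = 0.101) and 0.61 ± 0.32 for Ddx58 (adjusted p = 0.292). Ifih1 passed without control replicate 3 of day 3 (adjusted p = 0.0368) or T.mu replicate 3 of day 3 (0.0414). Ifih1 ranged from 37.4 to 106 CPM in T.mu epithelium and from 26.6 to 85.1 CPM in control epithelium over all days, and these ranges overlapped widely.

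**Figure D3:**
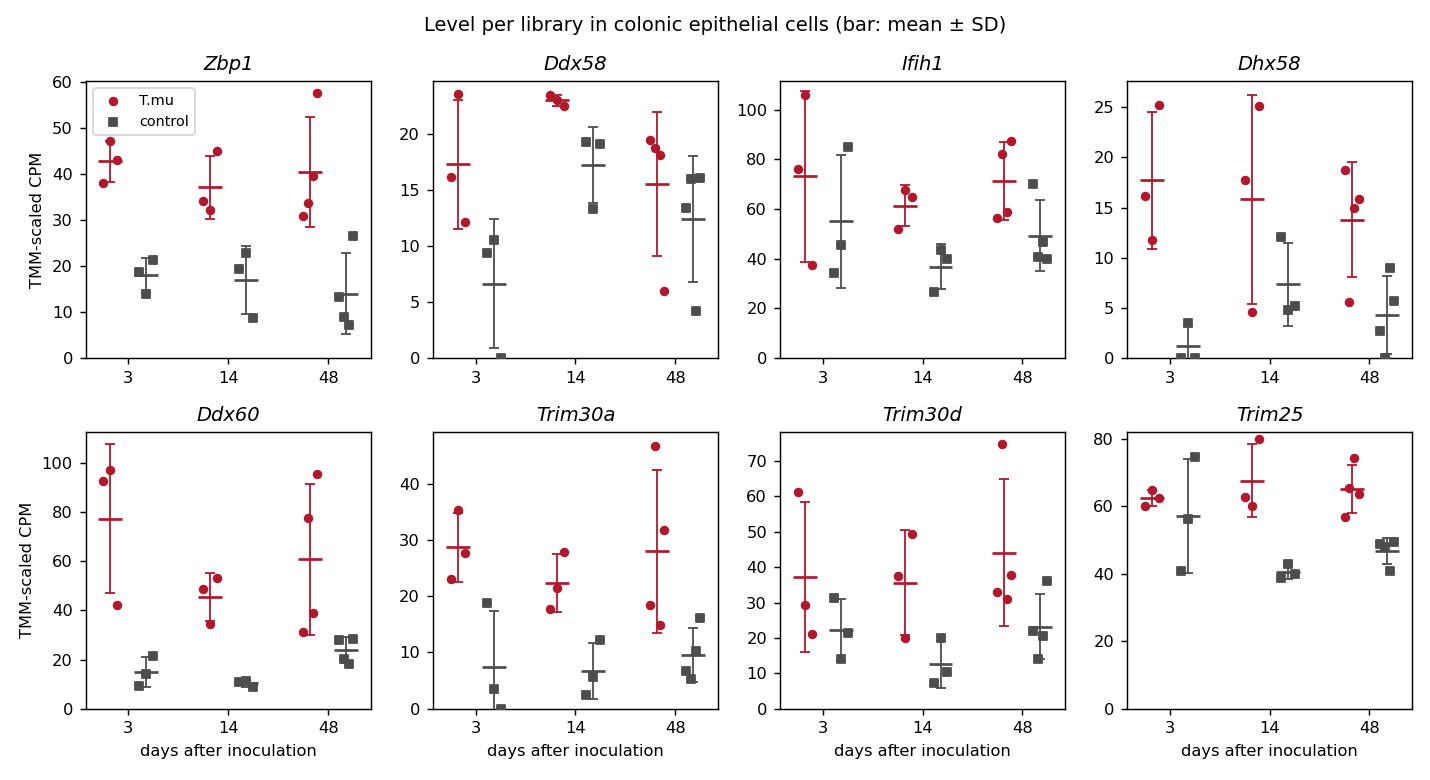
Level of each gene in colonic epithelial cells, in TMM-scaled CPM, by days after inoculation; each point is 1 library, T.mu in red circles left of control in grey squares, with the mean and SD as bars. Ddx60 and Zbp1 separated at each day, while Ifih1, Ddx58, Dhx58, Trim30a and Trim30d had T.mu libraries within the control range at day 48.

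Whether the T.mu effect changed with time was tested directly. In tissue the day 48 effect carries the depth and barcode difference given above, which cannot be told apart from time. In tissue 0 of the 8 genes were called for a difference between days (0.0684% of all genes), and 1, Trim30a, had an unadjusted p under 0.05 in edgeR (adjusted p = 0.128). With no filter on low counts Trim30a passed (adjusted p = 0.0178). In epithelium 0 of the 8 genes were called (0% of all genes), and 0 had an unadjusted p under 0.05. DESeq2 called 0 of the 8 in either preparation.

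The effect in epithelium was then set against that in tissue, in 1 fit over all 40 libraries. At day 48 the tissue effect carries the depth and barcode difference given above, and at day 14 the second barcode differed between the preparations. Of the 8 genes 0 were called at day 3 (0.0338% of all genes), 0 at day 14 (0%) and 0 at day 48 (0.0338%) by edgeR, with 1, 2 and 1 genes at an unadjusted p under 0.05, and DESeq2 called 0 at each day. The differences ranged from -1.44 to 1.04 at day 3, from -3.86 to 0.41 at day 14 and from -0.997 to 0.08 at day 48 on the log2 scale. The value of -3.86 ± 1.10 belonged to Trim30a (adjusted p = 0.340) and rests on the 2 control counts in tissue. For Zbp1 at day 14 the effect in epithelium minus tissue was -1.68 ± 0.57 (adjusted p = 0.514). These p-values do not show that the effects were alike in the preparations.

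Among mice with no inoculum, 4 of the 8 genes were lower in epithelium than in whole tissue (29.7% of all 11834 genes were lower) and 1 was higher (23.1% were higher). Values here are on 1 TMM scale over all 40 libraries, with 10 controls on each side. The labels do not say whether epithelium and tissue of a litter came from the same mouse, and these fits treat them as separate samples. Between these controls 6 of the 10 epithelial markers were lower in epithelium and 2 higher (median log2 fold change -0.46), with Epcam at -1.69 and the mucin Muc2 at 3.07. Ribosomal RNA and Lars2 took 26.1% to 46.9% of counts in epithelial libraries and 9.05% to 29.6% in tissue libraries. Their part in the differences between preparations was not tested. Trim25 averaged 49.2 ± 9.44 CPM in control epithelium and 194 ± 39.9 CPM in control tissue (SD, n = 10 each), with no overlap (8.53% of genes lay wholly below in epithelium), a log2 fold change of -1.98 ± 0.14 (adjusted p = 1.16e-22). Ddx60 averaged 17.5 ± 7.34 CPM in control epithelium and 60.8 ± 13.7 CPM in control tissue, also with no overlap (-1.98 ± 0.28, adjusted p = 1.54e-07). Trim25 and Ddx60 were the only 2 of the 8 whose control groups did not overlap.

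Ifih1 averaged 48.5 ± 16.3 CPM in control epithelium and 86.4 ± 10.8 CPM in control tissue (-0.89 ± 0.16, adjusted p = 2.52e-06), and Ddx58 12.7 ± 6.70 CPM in control epithelium and 23.6 ± 4.58 CPM in control tissue (-0.99 ± 0.27, adjusted p = 0.00121). Trim30a ran the other way, with 8.32 ± 6.06 CPM in control epithelium and 4.48 ± 3.85 CPM in control tissue (1.47 ± 0.46, adjusted p = 0.00504). That call ended without the libraries under 400000 counts (0.90, adjusted p = 0.262) and without epithelium control replicate 1 of day 3 (1.05, adjusted p = 0.153), and the value was 2.62 without tissue control replicate 3 of day 14. Zbp1 (0.08 ± 0.25), Dhx58 (-0.64 ± 0.48) and Trim30d (0.58 ± 0.27, adjusted p = 0.0617) did not pass. RLE scaling moved the median log2 difference of all genes from -0.07 to 0.18, and Trim30d then passed at 0.84 (adjusted p = 0.00747).

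**Figure D4:**
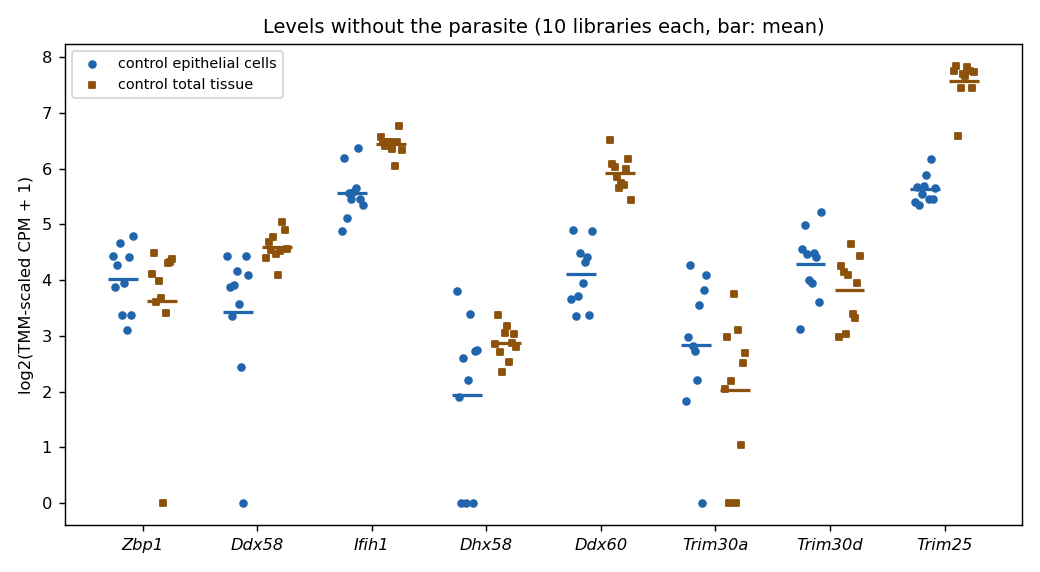
Levels in control libraries on the log2(TMM-scaled CPM + 1) scale, with epithelial cells in blue circles left of total tissue in brown squares; each point is 1 of 10 libraries and the bar is the mean. Trim25 and Ddx60 were lower in every epithelial library than in every tissue library, and the ranges of the other 6 genes overlapped.

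The 12 groups were also ordered by their means on the common scale, as a description without a test. The order between preparations depends on the scaling, since the median difference between control preparations was -0.07 with TMM and 0.18 with RLE. Zbp1 was highest in the 3 T.mu tissue groups, with means of 97.7, 74.3 and 67.5 CPM at days 14, 3 and 48. The 3 T.mu epithelium groups followed at 44.8, 42.0 and 39.6 CPM, and the 6 control groups of either preparation lay between 10.02 and 18.1 CPM. The steps between these 3 sets were larger than the SDs, meaning that 1 mean less its SD exceeded the next mean plus its SD. Those between neighbours within each set were not. The T.mu effect on Zbp1 was not called different between the preparations (edgeR adjusted p = 0.708, 0.514 and 0.735 at days 3, 14 and 48). For Trim30a the 6 T.mu groups of both preparations, at 23.9 to 40.2 CPM, lay above the 6 control groups, at 0.350 to 9.85 CPM. Trim25 was ordered by preparation instead, with all 6 tissue groups at 170.2 to 290.0 CPM and all 6 epithelium groups at 43.3 to 72.1 CPM. For Ddx60, T.mu epithelium at 48.4 to 80.7 CPM was interleaved with control tissue at 52.5 to 72.8 CPM. Ifih1 in T.mu tissue, at 158 to 189 CPM, lay above all other groups, at 39.3 to 96.9 CPM. For Dhx58, Trim30d and Ddx58 no step between neighbouring groups was larger than the SDs.

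The share of Trim30a in the counts of the Trim30a and Trim30d pair was examined after its values were seen. The permutation p-values below come from those same values and give it no separate support. In tissue it was 39.4 ± 11.2% in T.mu libraries and 23.6 ± 16.0% in control libraries (SD, n = 10 each). The difference averaged over days was 17.5 percentage points (exact two-sided permutation test within days, p = 0.00936, 0.0187 after adjustment over the 2 preparations). At day 14 the controls had 0, 0 and 10.5%, against 48.8, 47.9 and 22.2% in T.mu tissue, whereas at day 48 the groups overlapped fully. These 3 control shares rest on 0, 0 and 2 counts of Trim30a beside 6, 6 and 17 of Trim30d. The 2 control libraries at 0 were both under 400000 counts in total. In epithelium the share was 41.1 ± 10.3% in T.mu libraries and 27.3 ± 13.8% in control libraries, a difference of 14.3 points (exact permutation p = 0.0385, adjusted 0.0385), and 12.6 points without the libraries under 400000 counts (exact permutation p = 0.149). Leaving out single libraries in epithelium ended that call for 8 of 20.

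**Figure D5:**
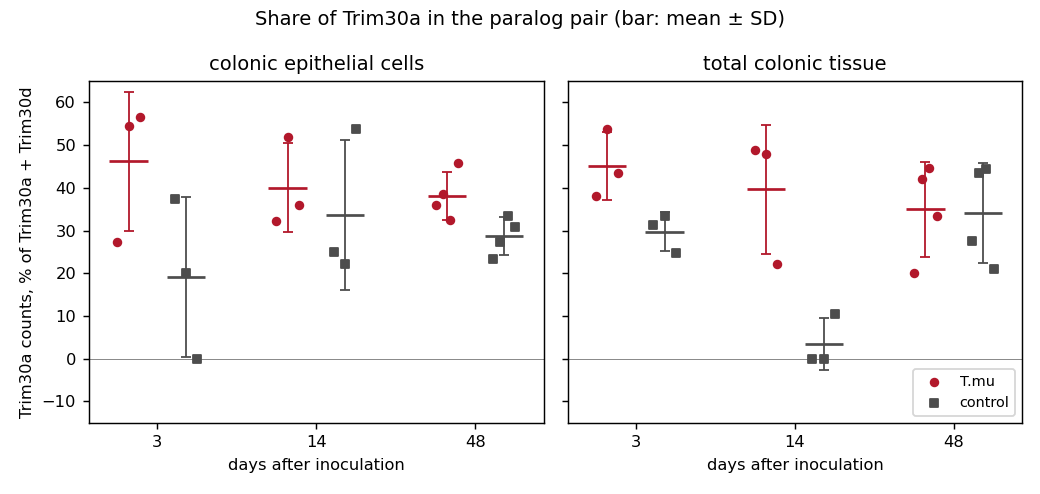
Percent of the summed Trim30a and Trim30d counts that belong to Trim30a, by days after inoculation, in epithelial cells (left) and total tissue (right); each point is 1 library, T.mu in red circles and control in grey squares, with the mean and SD as bars. The widest gap was in tissue at day 14, where the 3 controls lay at 0, 0 and 10.5%. These rest on 0, 0 and 2 counts of Trim30a beside 6, 6 and 17 of Trim30d.

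Other genes of the sensing routes were counted in the same fits, in lists also chosen with earlier results of these data known. As a background, 1.5% of all genes were called higher in tissue and 2.46% in epithelium in the average over days. In tissue averaged over days, 3 of 19 tested partners in RNA sensing rose: Zc3hav1, which binds CpG-rich viral RNA (log2 fold change 0.67), Eif2ak2, the RNA-activated kinase PKR (0.98), and Adar, which edits double-stranded RNA (0.79). Of the genes of the ZBP1 death route 3 of 7 rose, namely the pseudokinase Mlkl (0.89), the kinase Ripk3 (0.69) and the protease Casp8 (0.48). Of 11 DNA sensing genes 1 rose, the nucleotide hydrolase Samhd1 (0.59), and of 15 kinase and interferon genes 1, Irf7, the factor that amplifies interferon production (0.77, adjusted p = 4.89e-08). On the endosomal Toll-like receptor route 0 of 9 were called by edgeR, with 1 at an unadjusted p under 0.05, Tlr3 (0.66, adjusted p = 0.0868). None of these lists had a gene that fell in tissue, and their median log2 fold changes lay between 0.01 and 0.25.

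Of 33 other TRIM genes tested in tissue 5 rose and 0 fell in the average over days, with a median log2 fold change of 0.17. The 4 with the smallest adjusted p were Trim12a (1.28 ± 0.19, adjusted p = 3.53e-06), Trim40 (1.02 ± 0.15, adjusted p = 1.31e-05), Trim15 (1.00 ± 0.16, adjusted p = 4.09e-05) and Trim31 (0.69 ± 0.14, adjusted p = 0.00105). Trim40 averaged 143 ± 68.6 CPM in T.mu tissue and 66.5 ± 19.1 CPM in control tissue. In epithelium 1 of 27 rose, Trim31 (0.79 ± 0.20, adjusted p = 0.0134).

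In epithelium Irf7 was called at each day. It averaged 193 ± 88.1 CPM in T.mu epithelium and 50.6 ± 16.0 CPM in control epithelium (SD, n = 10 each; 1.90 ± 0.17, adjusted p = 4.46e-13). At day 3 its effect in epithelium exceeded that in tissue by 1.85 ± 0.38 on the log2 scale (adjusted p = 0.0241). Beside Trim31, the other genes called in the average over days were Tradd, a death-domain adaptor (0.73, adjusted p = 0.0332), and Mlkl (1.19, adjusted p = 0.0483), which rose, and Prkdc, the DNA-dependent protein kinase, which fell by 1.07 (adjusted p = 0.0325). Of 17 RNA sensing partners 0 were called, with 2 at an unadjusted p under 0.05 in edgeR (Dhx36 at -0.65 and Zc3hav1 at 0.46), and of 8 genes of the endosomal route 0, with 1 (Unc93b1 at 0.57).

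Between the control preparations 29.7% of all genes were lower in epithelium and 23.1% higher. Of 14 kinase and interferon genes 11 were lower in epithelium and 1 higher. Irf7 averaged 52.6 ± 17.9 CPM in control epithelium and 485 ± 78.1 CPM in control tissue (-3.20, adjusted p = 3.16e-36), and Tbk1, the kinase that activates IRF3, 19.3 ± 5.02 CPM in control epithelium and 63.7 ± 10.9 CPM in control tissue (-1.82, adjusted p = 8.02e-15). Of the ZBP1 route 4 of 7 were lower and 0 higher, with Ripk3 at -1.69 and Casp8 at -1.15. Of 19 RNA sensing partners 3 were higher, with Dhx36 at 1.03, and 4 lower, with Zc3hav1 at -1.63, both smaller shares than over all genes. DNA sensing genes divided into 3 higher and 3 lower of 10, shares near those over all genes. Other TRIM genes divided into 9 higher, with Trim28 at 2.13, and 8 lower of 33, with Trim31 at -1.88, also near them. Of 8 endosomal Toll-like receptor genes 4 were lower, a larger share than over all genes, and 1 was higher, a smaller share.

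The pattern of the 8 genes over the libraries was compared with that of every other tested gene. Most like the mean of the 8 in tissue were Ifit1 (Pearson r = 0.964), Ifi27l2b (0.961), Oasl2 (0.961), Irgm1 (0.960) and Oasl1 (0.948), over 20 libraries. In epithelium they were Oasl2 (0.963), Ifi27l2a (0.960), Ifi44 (0.937), Bst2 (0.907) and Oas3 (0.905), over 20 libraries. The correlations are on log2 CPM, and all genes share the same libraries and their depth. Against the mean of the other 7, Ifih1 followed most closely in tissue (r = 0.915) and Ddx60 in epithelium (0.831), and Ddx58 least in both (0.547 and 0.344).

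The summed level of 15 leukocyte markers lay between 67.8 and 224 CPM in T.mu tissue (median 161; 14 of 15 detected, Cd79a at 0) and between 87.5 and 187 CPM in control tissue (median 134; 15 of 15). The groups did not overlap at day 3, with medians of 195 CPM in T.mu tissue and 133 CPM in control tissue, and the median log2 fold change of the 8 that could be tested was 0.52. In epithelium it lay between 7.25 and 73.3 CPM in T.mu libraries (median 25.3) and between 17.9 and 46.4 CPM in controls (median 29.0), with all 15 detected in both. At day 3 it lay between 7.25 and 18.99 CPM in T.mu epithelium and between 17.9 and 42.8 CPM in control epithelium. Of the leukocyte markers, 8 could be tested in tissue and 1 in epithelium, and 0 were called between T.mu and control by edgeR in the average over days. At an unadjusted p under 0.05 there was 1 in tissue, Lyz2 (0.40), and 1 in epithelium, Ptprc (-0.88). Of the 10 epithelial markers 5 were called higher in T.mu epithelium (2.46% of all genes): Krt8 (0.59), Krt19 (0.61), Krt20 (0.59), Cldn7 (0.84) and Vil1 (0.46). Muc2 stood at -0.37 (adjusted p = 0.0985), with 15526 ± 4136 CPM in T.mu epithelium and 20008 ± 5154 CPM in control epithelium (SD, n = 10 each), and Cdh1 and Epcam at 0.08 and 0.12. The 10 markers had summed levels of 12748 to 34656 CPM in T.mu and 17660 to 37378 CPM in control epithelium. The part of these markers in the levels of the 8 genes was not tested.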

How the data were processed

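The members and gene lists were chosen with earlier results of these data known. The authors deposited raw counts of 40 libraries prepared for 3′ digital gene expression, as the labels' protocols say. The submitters' processing notes name STAR and Subread. Versions, genome build, annotation and strand are not given in the sources used here, and symbols came from GENCODE M21 (GRCm38), which matched 98.6% of the IDs. A non-mouse entry (0.389% of counts) was left out. In each library 61.2% to 87.2% of small values were even, as when both mates of a pair are counted, so low counts are less precise than they look.

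Genes were kept by filterByExpr (minimum count 10, total 15), which kept all 8 members in every fit, so the permutation test planned for members below the filter was not needed. Counts were fitted with edgeR 4.0.16 (R 4.3.3) using TMM scaling and robust quasi-likelihood, in 1 fit per preparation and 1 over all 40 libraries. The script was tested on simulated data. Alternatives were RLE scaling, no filter, halved counts, DESeq2 1.42.0, a block, libraries of at least 400000 counts only, and leaving out each library. Within a preparation the block was the litter number, shared over days. In the fit over all 40 libraries it paired epithelium and tissue libraries of the same inoculum, day and litter number. The labels do not say whether such libraries came from the same mouse. The labels' litter field gives T.mu and control mice shared numbers, so these pair the libraries, although deviations from the group means correlated little within pairs (median r 0.02, range -0.10 to 0.19, over 0.1 in 3 of 20). Named genes were all 8 members, up to 4 called genes per list with the smallest adjusted p (3 per direction between control preparations) and the 5 most similar non-members per preparation. Where libraries did not come from separate mice, p-values measure technical spread. A further motif searched in the promoters is not reported here.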

Additional observations from a re-analysis of the deposited data

Results flagged for a closer look

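Among the 32 sets of 4 libraries that the 8 genes give at day 48, 3 had a library far from the other 3 by the 95% limit of Dixon's gap test, which chance passes in about 1 in 20 sets. Ddx58 stood at 5.95 CPM in T.mu replicate 4 of epithelium, below the other 3 at 18.2 to 19.4 CPM. Trim30d stood at 74.8 CPM in T.mu replicate 2 of epithelium, above the other 3 at 31.0 to 37.7 CPM. Trim25 stood at 335 CPM in T.mu replicate 3 of tissue, above the other 3 at 290.5 to 297 CPM.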

How the results depend on the processing

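Calls at single days rest on 3 or 4 libraries a group, and in epithelium on 0 to 173 counts a gene and library, so a missed threshold there does not show a lack of change. No setting turned the direction of a T.mu fold change of the 8 genes. Between control preparations, Zbp1, not called in any setting, changed sign with no filter (-0.16), without libraries under 400000 counts (-0.23) and without epithelium control replicate 4 of day 48 (-0.065; -0.065 to 0.42 over the single libraries left out, 0.08 as reported). The cause of the shifts below was not tested, except that leaving out libraries makes the groups smaller.

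Members called higher in epithelium at day 48 numbered 2, and 1 with no filter, with the replicate block (litter) or with DESeq2. At day 3 they numbered 1 in epithelium, and 0 without libraries under 400000 counts. In tissue at day 3 they numbered 4, and 7 with counts halved. All 8 were called in the tissue average, but Trim25 was not with no filter (edgeR adjusted p = 0.085). Without libraries under 400000 counts, Ddx60 (0.0551) and Trim25 (0.139) were not called in that average. Between controls 1 was higher in epithelium, 2 with RLE scaling, counts halved or DESeq2, and 0 without libraries under 400000 counts. For the difference between days 1 member was called in tissue with no filter, against 0. The block changed no other call of a member. The Trim30a share in epithelium differed by 12.6 points without libraries under 400000 counts.

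Over all genes, RLE scaling moved no count of T.mu calls by over 1.5 times. With no filter, genes called for a difference between days numbered 2 in epithelium and 73 in tissue (0 and 8 as reported), and those that differed between preparations 11, 2 and 27 at days 3, 14 and 48 (4, 0 and 4). With the block, which there paired epithelium and tissue libraries, the last were 2 at day 3 and 2 at day 14. With counts halved, 82 genes were called in epithelium at day 14 (51), 84 in tissue at day 3 (55), 1 for days in epithelium, and 2 and 11 between preparations at days 3 and 48. With DESeq2, 95 were called in epithelium at day 14, 174 and 370 in tissue at days 14 and 48 (113 and 211), 91 for days in tissue, and 7, 46 and 45 between preparations. Without libraries under 400000 counts, the counts were 10 and 90 in epithelium at days 3 and 14 (36 and 51) and 151 in the average (343), 27, 99 and 146 in tissue at days 14 and 48 and in the average (113, 211 and 223), 1 and 4 for days, and 11 between preparations at day 48.

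Leaving out 1 library at a time, members called higher ranged from 0 to 1 and from 0 to 2 in epithelium at days 3 and 48 and stayed at 1 at day 14, and were 5 to 6 in its average, 4 to 5, 4 to 6 and 4 to 6 in tissue, 7 to 8 in the average, and 0 to 2 between controls. Genes called ranged from 18 to 52, 19 to 48, 14 to 28 and 137 to 590 in epithelium, 41 to 62, 56 to 196, 99 to 291 and 169 to 259 in tissue (days 3, 14, 48 and the average), 0 to 1 and 1 to 76 for days in epithelium and tissue, 1 to 72, 0 to 13 and 3 to 15 between preparations, and 5705 to 6327 between controls. The Trim30a share differed by 11.1 to 17.6 points in epithelium and 15.9 to 20.4 in tissue.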
